A study of Mus musculus with 4 samples.

Results

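Fibronectin and the matricellular glycoproteins were followed across 4 microarrays of transplanted mouse mammary gland cells. The set holds 8 genes, namely Fn1, Tnc, Thbs1, Thbs2, Postn, Sparc, Cthrc1 and Efemp1, and 7 of them were among the 17097 genes measured. It was selected on the contrast described here, since Fn1, Cthrc1 and Efemp1 were already known to lead it, so every difference below is a description and carries no test. Each gene was represented by the probe set that the platform annotation assigns to that symbol alone, and by the brightest one over the 4 arrays where there were several. This gave 10 probe sets for 7 genes, and Thbs1 was not analysed here. One group had received 10000 BC cells, which the labels treat as the multipotent setting, and the control group had received 2000 BC cells together with 8000 LC cells, the unipotent setting. BC and LC are not spelled out, and are commonly read as basal and luminal cells. All arrays came from cells sorted 3 days after transplantation, with RNA taken from 50 cells. The labels leave out the sort gate, the host, and the genotype, strain and age of the mice. They also do not say whether the 2 arrays of a group came from separate animals, so the spread within a group may be technical. Adding LC cells also meant transplanting fewer BC cells, so LC cells and BC cell number cannot be told apart.

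Fibronectin is a large secreted glycoprotein that cells assemble into fibrils through integrins, and these fibrils serve as a scaffold on which collagen is laid down. Matricellular proteins are secreted into the same matrix but act mainly as modulators. Tenascin C and periostin appear in matrix under repair, thrombospondins bind growth factors and cell surface receptors, SPARC binds collagen, and CTHRC1 and the fibulin EFEMP1 are secreted by matrix-producing mesenchymal cells. In the mammary gland such genes are known from stromal fibroblasts and, in part, from basal cells, which also make basement membrane.

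Values are log2 expression after RMA, as deposited, so a step of 1 is a 2-fold change. Control replicate 2 stood apart over all probe sets. It had a median of 4.62 and an SD of 1.44, against medians of 4.37 to 4.38 and SDs of 1.90 to 1.92 on the other arrays, and its highest correlation with any of them was 0.919, against at least 0.970 for the best match of each of the others. Each difference is therefore also given against control replicate 1 alone. In limma 0 of 17097 genes, or 0%, had an adjusted p under 0.05. At an unadjusted p under 0.05 there were 680, a share of all genes smaller than 0.05 itself. With an intensity trend in the variance model 97 genes passed. With 2 arrays a group, the smallest p of an exact permutation test is 0.333.

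Fn1, Cthrc1 and Efemp1 were several times higher on both BC alone arrays than on either control array. Fn1, which encodes fibronectin, had 9.48 and 9.19 in BC alone replicates 1 and 2, and 7.06 and 6.60 in control replicates 1 and 2 (probe set 1426642_PM_at). The lower BC alone array was 2.13 above the higher control array. Group means were 9.34 ± 0.21 and 6.83 ± 0.33 (SD, n = 2), a difference of 2.505 log2 or 5.68-fold. Cthrc1, whose product is a secreted protein with a short collagen repeat, had 7.66 and 7.02 in BC alone and 4.17 and 4.25 in the control (1452968_PM_at). Its control values were 0.08 apart and below the medians of their arrays, so the level there may be background and the 8.75-fold difference may be too small. Efemp1, also called fibulin-3, had 5.32 and 6.13 in BC alone and 3.05 and 2.94 in the control (1427183_PM_at). Both control values again lay below the array medians, and the difference was 2.73 log2, or 6.64-fold. Without control replicate 2 the 3 genes differed by 2.275, 3.17 and 2.675. For these 3 genes the array that stood apart was no lower than control replicate 1 by more than 0.46.

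**Figure D1:**
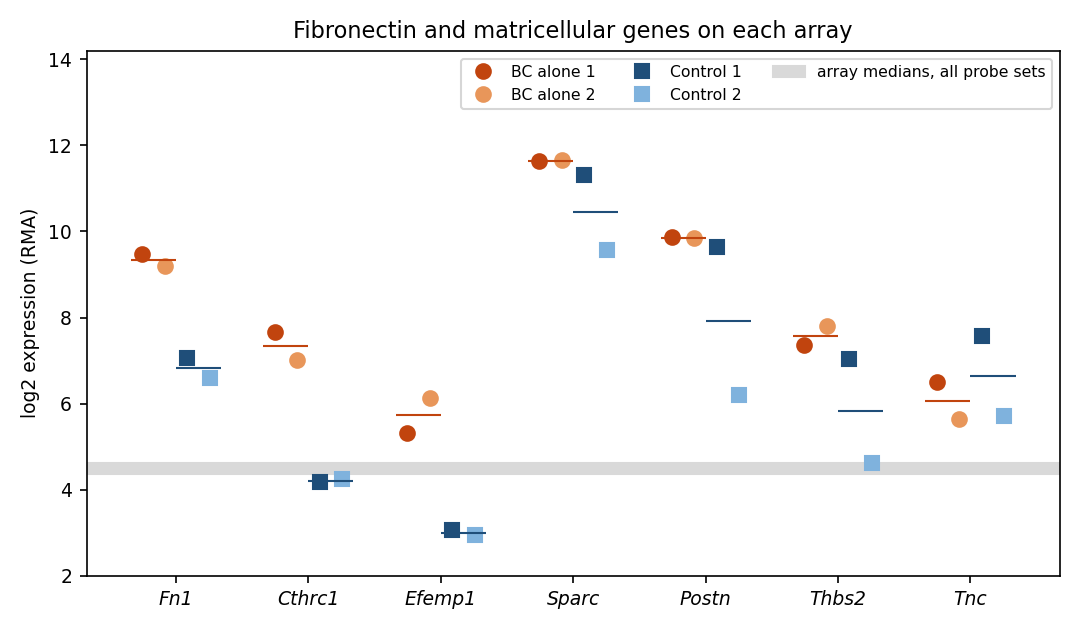
Log2 expression (vertical axis, RMA) of the 7 measured genes on each of the 4 arrays, with circles for BC alone, squares for the control, short lines for group means, and a grey band for the range of the array medians over all probe sets. The controls lie together and below BC alone for Fn1, Cthrc1 and Efemp1, while for Sparc, Postn and Thbs2 control 1 lies close to BC alone and control 2 far below.

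Sparc, Postn and Thbs2 showed another pattern, in which control replicate 1 was close to BC alone and control replicate 2 was far lower. Sparc, which encodes osteonectin, had 11.63 and 11.65 in BC alone, 11.31 in control replicate 1 and 9.58 in control replicate 2 (1448392_PM_at). Postn, which encodes periostin, had 9.86 and 9.84 in BC alone, then 9.63 and 6.20 in the control (1423606_PM_at). The control arrays of Postn thus lay 3.43 apart, a 10.8-fold range within 1 group, while its BC alone arrays lay 0.02 apart. Thbs2, which encodes thrombospondin 2, an inhibitor of blood vessel growth, had 7.36 and 7.80 in BC alone, 7.04 in control replicate 1 and 4.61 in control replicate 2 (1422571_PM_at). The groups did not overlap for any of the 3 genes, with mean differences of 1.195 for Sparc, 1.935 for Postn and 1.755 for Thbs2. Against control replicate 1 alone these were 0.33, 0.22 and 0.54, or 1.26-, 1.17- and 1.45-fold. In the control group the SDs of 1.22, 2.43 and 1.72 (n = 2) were as large as the differences or nearly so. After cyclic loess normalization the order of the controls turned for Sparc, with 11.06 in control replicate 2 and 10.84 in control replicate 1, and its difference was 0.20.

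Second probe sets of Sparc and Thbs2 gave the same ordering of the groups. The dimmer Sparc probe set, 1416589_PM_at, had 11.87 and 11.81 in BC alone and 11.31 and 8.52 in the control. Its difference of 1.925 was larger than that of the main one, and 0.53 against control replicate 1 alone. The dimmer Thbs2 probe set, 1450663_PM_at, had 5.19 and 6.10 in BC alone and 5.11 and 4.17 in the control. There the nearest BC alone and control arrays were only 0.08 apart, and the difference was 1.005.

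The promoters of the members that shared a pattern are shown to set side by side the sequence upstream of genes that were low on the same array. RefSeq (GRCm38.p6) gave a promoter for 5 of the 8 genes, in 7 entries, with 2 start sites each for Postn and Tnc. The 120 bases before the start are printed for Sparc (chr11:55420081-55420200, minus strand), Thbs2 (chr17:14694263-14694382, minus strand), the Postn start site with a TATA box (chr3:54360987-54361106, plus strand) and, for comparison, Efemp1 (chr11:28853085-28853204, plus strand). Capitals mark a match on either strand to any of 6 motifs, namely the TATA box TATAAA, the CCAAT box, the GC box with the letters GGGCGG, the TEAD motif CATTCC, the AP-1 motif TGANTCA and the SMAD motif CAGAC. None of the matches overlapped.
Sparc: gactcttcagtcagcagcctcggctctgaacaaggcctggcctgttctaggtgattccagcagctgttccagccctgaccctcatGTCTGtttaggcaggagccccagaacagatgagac
Thbs2: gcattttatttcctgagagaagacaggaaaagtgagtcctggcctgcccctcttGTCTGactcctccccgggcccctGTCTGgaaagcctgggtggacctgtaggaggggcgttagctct
Postn: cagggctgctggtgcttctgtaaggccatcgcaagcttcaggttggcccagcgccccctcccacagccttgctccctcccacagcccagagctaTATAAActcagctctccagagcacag
Efemp1: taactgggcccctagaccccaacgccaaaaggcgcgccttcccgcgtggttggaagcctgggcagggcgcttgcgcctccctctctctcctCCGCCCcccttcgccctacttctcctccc

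In the 250 bases before the start, CAGAC was found for Sparc, Thbs2, Postn (at its other start site) and Tnc, in 4 of the 7 entries, and in 42.2% of all 32851 promoter entries. Thbs2 held it at 2 places, and both are printed in capitals as the reverse complement. TATAAA was found for Postn, Thbs2 and Tnc, in 4 of the 7 entries, and in 12.4% of all entries. The 2 Tnc windows overlap, and the same TATAAA and GGGCGG sites are counted in both. In Postn TATAAA spanned bases 26 to 21 before the start. It lay further upstream in Tnc, and in Thbs2, where it was on the other strand at bases 126 to 121. GGGCGG was found for Efemp1 and Tnc in 3 of the 7 entries (32.7% of all entries), CCAAT for Thbs2 in 1 (33.8%), TGANTCA for Efemp1 in 1 (6.75%), and CATTCC in 0 (12.6%). These matches describe the letters in the window and were not compared with any binding data.

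Tnc, which encodes tenascin C, differed from the other 6 genes in its order of the arrays. It had 6.50 and 5.64 in BC alone, 7.56 in control replicate 1 and 5.70 in control replicate 2 (1416342_PM_at). The highest value was thus in one control and the lowest in BC alone, and the groups overlapped. Means were 6.07 ± 0.61 and 6.63 ± 1.32 (SD, n = 2), a difference of -0.56 that was smaller than the control SD. It was -1.49 against control replicate 1 alone and 0.37 without that array. A dimmer probe set, 1456344_PM_at, also peaked on control replicate 1, with 3.53 there against 2.75, 2.81 and 2.58 elsewhere, all below the array medians.

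**Figure D2:**
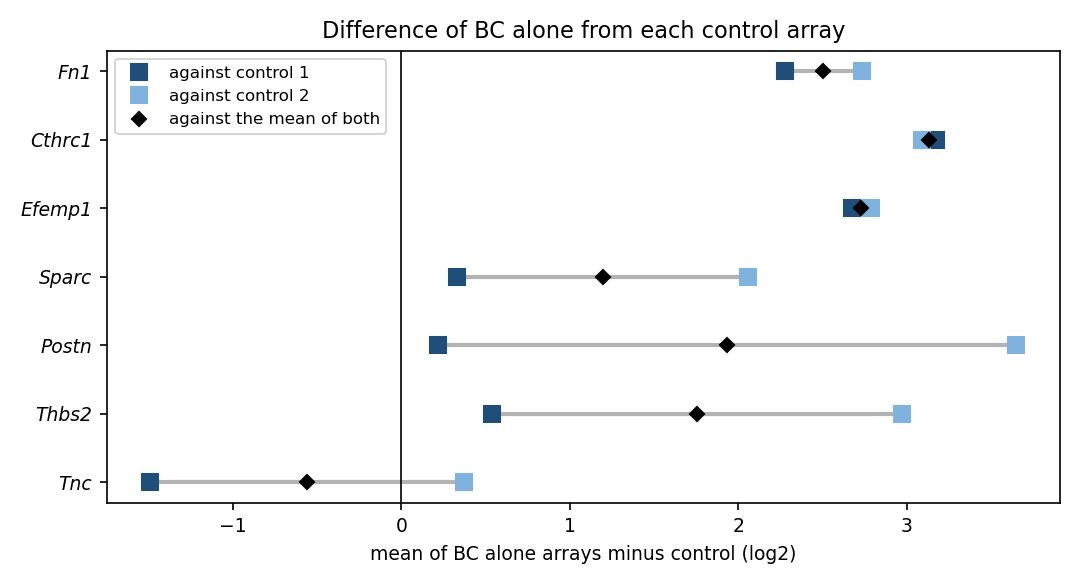
Mean of the BC alone arrays minus each control array and minus the mean of both (horizontal axis, log2) for the 7 genes. The squares coincide within 0.46 for Fn1, Cthrc1 and Efemp1 and lie 1.73 to 3.43 apart for Sparc, Postn, Thbs2 and Tnc, with Tnc crossing 0.

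Counted together, 6 of the 7 measured genes were higher on both BC alone arrays than on both controls and 0 were lower, beside 16.8% and 19.6% of all genes. All 6 differed at least 2-fold, beside 4.79% of all genes that were higher by this size and 0.895% that were lower. Nothing is read from these counts, since the members were picked on this contrast. Against control replicate 1 alone 3 genes, Fn1, Cthrc1 and Efemp1, stayed at least 2-fold higher, beside 2.19% of all genes, while 6 were at all above it on both BC alone arrays, beside 33.2%. Sparc, Postn, Thbs2 and Tnc were lower on control replicate 2 than on control replicate 1 by at least 1 log2, which was the case for 18.3% of all genes. The 6 genes kept their order of groups under quantile normalization, median centring and cyclic loess, but not all kept their size. Sparc was at 0.61 after quantile normalization and 0.20 after cyclic loess, under 2-fold, and Fn1 at 1.91 and 1.87. Over all genes the scaling mattered too, since 84.3% of the 972 genes past 2-fold without overlap were higher in BC alone as deposited. That share was 54.4% of 614 genes once the arrays were quantile normalised, 56.5% of 533 with cyclic loess and 92.0% of 1243 with median centring. Centring alone shifted the median of all genes upwards by 0.125.

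Likeness to other genes was measured as the Euclidean distance between the 4 log2 values after each gene's mean was subtracted, over 8544 brighter genes. The genes nearest to Fn1 were Mxra8, at a distance of 0.236, and Thy1, at 0.267. Thy1 is a surface marker of fibroblasts, and had 8.65 and 8.39 in BC alone and 6.57 and 5.92 in the control. Cthrc1 was nearest to F2r, a thrombin receptor, at 0.637, and Efemp1 to Cd34, a sialomucin of endothelial cells and stromal progenitors, at 0.289. Cd55, an inhibitor of complement, was the second nearest to both, at 0.757 and 0.378. Postn was nearest to Tgfbr3, a co-receptor for TGF-beta, at 0.110, and then to Trp63, the transcription factor p63 of basal cells, at 0.230. Thbs2 was nearest to Serpina3n and to the dermatopontin gene Dpt, at 0.209 and 0.241, and Sparc to Eif4e2 and Nol7, at 0.045 and 0.046. Tnc was nearest to Mpzl2 and Abca3, at 0.221 and 0.224. Within the set Fn1 and Cthrc1 were each other's nearest (0.773), as were Postn and Thbs2 (0.799). These distances rest on 4 arrays, of which control replicate 2 sets much of the order.

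Close relatives of the members were divided too. Of the other thrombospondins, Thbs3 had 5.47 and 5.29 in BC alone and 4.38 and 4.00 in the control. With Thbs2, itself picked on this contrast, 2 of 4 measured family members were higher without overlap, beside 16.8% of all genes. In the tenascin family Tnxb, which encodes tenascin X, was higher without overlap, with 7.07 and 7.40 in BC alone and 5.84 and 4.45 in the control. Tnr was dim and lower without overlap, at 2.82 and 2.82 against 2.98 and 3.32, while the groups overlapped for Tnc. Thus 1 of 4 measured tenascin genes was higher and 1 lower without overlap, beside 16.8% and 19.6% of all genes. Sparc, picked on this contrast, was among 3 of 7 in the SPARC family that were higher without overlap, beside 16.8% of all genes. Besides Sparc these were Sparcl1, or hevin, with 8.34 and 7.85 against 6.41 and 5.63, and Fstl1, a follistatin-like protein, with 10.14 and 10.18 against 9.28 and 6.66. Sparcl1 was still 1.685 higher than control replicate 1, and Fstl1 0.88. Spock3, a proteoglycan of the family, was dim, at 2.42 and 2.50 against 2.81 and 2.75, and no longer separated the groups after median centring.

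Among the fasciclin-domain genes Postn and its paralog Tgfbi, an adhesive matrix protein, went apart. Tgfbi had 3.86 and 4.44 in BC alone, 7.54 in control replicate 1 and 4.12 in control replicate 2, so that, as for Tnc, a single control array was high. Stab1, a scavenger receptor with the same domain, had 4.79 and 5.68 against 6.09 and 5.94. In the fibulin family Fbln5, which takes part in elastic fibre assembly, had 7.02 and 6.60 against 5.80 and 4.98. With Efemp1, itself picked on this contrast, 2 of 6 were higher without overlap, beside 16.8% of all genes. The CCN family, matricellular proteins that bind integrins, had 1 of 6 members higher without overlap, which is near the 16.8% of all genes. This was Ccn3, with 5.86 and 5.45 in BC alone and 3.68 and 3.74 in the control, and, like Cthrc1, its control values were alike and below the array medians.

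Of 14 other genes of matricellular proteins and fibronectin partners, 8 were higher without overlap and 0 lower, beside 16.8% and 19.6% of all genes, with a median difference of 1.235 beside -0.04 over all genes. Against control replicate 1 alone that median was 0.43. Aspn, which encodes asporin, had 6.30 and 5.30 against 4.01 and 3.30, and Eln, elastin, 10.31 and 10.44 against 9.45 and 7.42. Adamts1, a protease, had 8.40 and 7.43 against 7.11 and 5.10, and Bgn, biglycan, 10.53 and 10.52 against 10.25 and 7.13. Bgn followed the pattern of Postn, with 0.275 left against control replicate 1, while Aspn kept 1.79. In the reported limma fit 0 of 17097 genes had an adjusted p under 0.05, so no gene of these lists could.

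**Figure D3:**
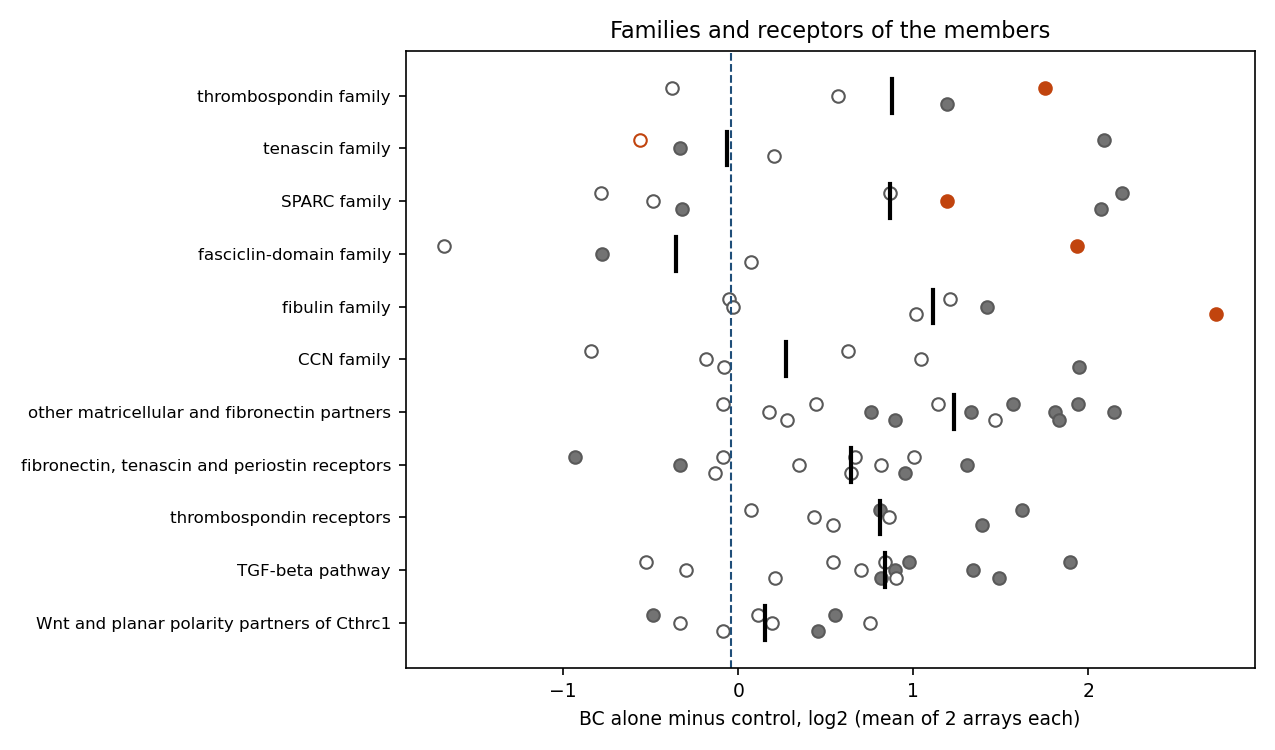
Difference of BC alone from the control (horizontal axis, log2, means of 2 arrays each) for each measured gene of 11 lists, with members of the set in orange, filled symbols where the groups did not overlap, black bars for list medians and a dashed line for the median of all genes. Most lists hold genes on both sides of 0, and medians run from -0.35 to 1.235 with the deposited scaling and all 4 arrays.

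Of 11 measured receptor genes for fibronectin, tenascin and periostin, Itgb5 and Itgb3 were higher without overlap and Itgb6 and Itga4 lower, of which 1 was lower after median centring. Both counts are near the shares of all genes, 16.8% and 19.6%. Itgb5, a beta chain that pairs with alpha v, had 8.81 and 8.68 against 8.37 and 6.51, and Itgb3 7.33 and 7.34 against 7.01 and 5.76. Itgb6, an epithelial beta chain, had 5.09 and 4.74 in BC alone and 5.77 and 5.93 in the control. Itga5, the alpha chain of the main fibronectin receptor, overlapped, with 4.17 and 6.30 against 5.53 and 5.11. The median of the list was 0.645, but 0.02 against control replicate 1 alone, 0.09 after quantile normalization and 0.04 after cyclic loess. Itgb1, the beta chain that pairs with alpha 5, differed by 0.345, and by -0.34 and -0.51 under those scalings. Of 7 thrombospondin receptor genes 3 were higher without overlap, and 2 after cyclic loess, beside 16.8% of all genes as deposited. They were Lrp1, an endocytic receptor, at 9.43 and 9.55 against 9.36 and 6.38, Cacna2d1, a calcium channel subunit, at 7.75 and 6.24 against 6.06 and 5.15, and Scarb1, a lipoprotein receptor, at 7.73 and 7.43 against 6.98 and 6.56. Cd47, another thrombospondin receptor, overlapped, and its difference of 0.54 turned to -0.16 after quantile normalization and after cyclic loess.

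TGF-beta is a known inducer of fibronectin and of several matricellular genes, and 6 of 13 measured pathway genes were higher without overlap, with 0 lower, beside 16.8% and 19.6% of all genes. After quantile normalization 3 of 13 were higher, after cyclic loess 4 and after median centring 7, while the shares of all genes are those as deposited. Tgfbr2, the type II receptor, had 8.46 and 9.03 against 7.89 and 6.62, and Bmp1, which cleaves procollagen, 9.99 and 9.93 against 9.53 and 7.71. Smad4, the shared SMAD partner, had 8.56 and 8.45 against 8.42 and 6.64, so that 0.085 was left against control replicate 1. Smad7, an inhibitor that the pathway itself induces, was highest on control replicate 1, at 7.37, against 5.82, 6.21 and 5.71 elsewhere. The list median was 0.84, and 0.17 against control replicate 1. CTHRC1 has been linked to the planar polarity branch of Wnt signalling. Of 8 such genes Dvl2 and Ror2 were higher without overlap, by 0.55 and 0.455, and Wnt11 lower, by -0.485. These counts stand beside 16.8% and 19.6% of all genes, and nothing is read from them. None of the 8 reached 2-fold without overlap, beside 4.79% of all genes higher by this size and 0.895% lower.

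Fibroblast markers were higher in BC alone without overlap for 9 of 12 genes, beside 16.8% of all genes, with a mean level of 8.07 and 7.98 in BC alone and 7.05 and 6.05 in control replicates 1 and 2. Dcn, decorin, had 10.84 and 11.16 against 9.91 and 8.02, and Fap 5.42 and 6.83 against 3.83 and 3.91. Pdgfra, a defining fibroblast receptor, had 4.06, 3.57, 3.58 and 3.68, which is below the median of each array. Pdgfrb, another such receptor, differed by -0.10, by -0.68 after quantile normalization, by -0.48 after cyclic loess and by 0.02 after median centring. Pericyte markers were higher without overlap for 3 of 4 measured genes, beside 16.8% of all genes. Their mean levels were 6.88 and 6.24 against 4.83 and 5.27. Rgs5 alone had 8.41 and 7.78 against 4.45 and 5.75, while Des overlapped, with a difference of 0.24. Endothelial markers were higher without overlap for 3 of 7, beside the same 16.8%, with mean levels of 6.19 and 6.11 against 5.48 and 5.56. Pecam1, Kdr, Cldn5 and Vwf overlapped, Vwf differing by -0.52, and the median of the endothelial list was 0.215. The part of fibroblasts, pericytes and endothelial cells in the values of Fn1, Cthrc1 and Efemp1 was not tested. In such bulk samples more cells of a type and more RNA per cell cannot be told apart.

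As with Sparc, Postn and Thbs2, most basal mammary markers were low on control replicate 2. The mean level of the list was 9.10 and 8.75 in BC alone, 9.22 in control replicate 1 and 5.97 in control replicate 2. Only 1 of 7, Myh11, was higher without overlap, near the 16.8% of all genes. Trp63 had 8.74, 8.76 and 8.81 on the first 3 of these arrays and 5.20 on the last. Oxtr, the oxytocin receptor, was not low there, with 5.16 and 5.54 in BC alone and 5.98 and 5.40 in the control. Luminal markers had mean levels of 7.30 and 7.94 in BC alone and 7.37 and 6.63 in the control, with 3 of 9 higher without overlap, beside 16.8% of all genes. Macrophage markers were lower without overlap for 3 of 7, and for 1 after median centring, beside 19.6% of all genes as deposited, with mean levels of 4.89 and 5.29 against 5.87 and 5.37, and Lyz2, lysozyme, had 6.12 and 6.93 against 7.46 and 7.70. Platelet markers, included because platelets carry thrombospondin, had mean levels between 4.45 and 4.64 on all 4 arrays. Control replicate 2 was lower than control replicate 1 by at least 1 log2 for 18.3% of all genes. Its SD over all probe sets, 1.44, was the smallest of the 4 arrays. The median difference of the basal list, 1.405 as deposited, was 0.98 after quantile normalization and 0.59 after cyclic loess. Neither the part of basal cells nor that of this narrower spread in the low values of control replicate 2 was tested.

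**Figure D4:**
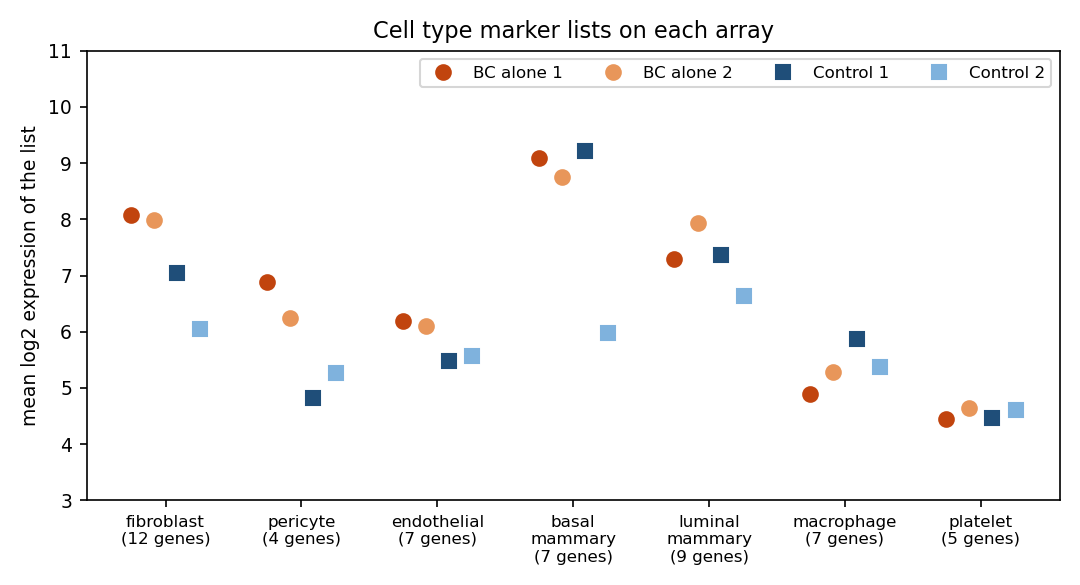
Mean log2 expression (vertical axis) of 7 cell type marker lists on each array, with circles for BC alone and squares for the control. The basal mean is low on control 2 alone, at 5.97, while the fibroblast, pericyte and endothelial means are lower on both controls than on both BC alone arrays.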

How the data were processed

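Mouse mammary gland cells were profiled on 4 arrays. The authors deposited log2 values, 1 per probe set and array, made with RMA and affy, without versions, per the submitters' processing notes. Whether the 4 arrays were normalised together is not given in the sources used here. No detection calls were used, so low values are not called absent, and array number limits the precision.

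Of 45141 probe sets the platform annotation (partly old) gave 28898 a single symbol, 551 several symbols and 15692 no name, and 28689 matched the RefSeq gene table with 0 symbols changed. The brightest probe set stood for a gene, with no filter. BC alone was compared with the control in limma 3.58.1 (R 4.3.3), with p-values adjusted by Benjamini-Hochberg across all 17097 genes, called under 0.05, and the fit was checked on simulated data. No overlap means that both arrays of one group lay above both of the other.

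The members and lists were chosen with earlier results of these data known. List genes named are up to 4 per list with the largest difference among those without overlap, and for each member the 2 nearest genes. Itga5, Itgb1, Cd47, Smad7, Tgfbi, Pdgfra, Pdgfrb, Oxtr, Dcn, Des, Pecam1, Kdr, Cldn5 and Vwf were picked with their values known, outside that rule. Alternatives were 3 other scalings, the mean of probe sets, a filter on dim genes, other variance models, a replicate block and leaving out each array. Of the listed genes 11 were not analysed here, Thbs1 among them.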

Additional observations from a re-analysis of the deposited data

How the results depend on the processing

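Fn1, Cthrc1, Efemp1, Sparc, Postn and Thbs2 were higher in BC alone without overlap under the 3 other scalings and with the mean of probe sets. Leaving out an array cannot undo a separation seen on all 4, so there it was fixed in advance and only the size could change. Leaving out each array gave differences from 2.28 to 2.73 for Fn1, 2.81 to 3.45 for Cthrc1, 2.33 to 3.13 for Efemp1, 0.33 to 2.06 for Sparc, 0.22 to 3.65 for Postn and 0.54 to 2.97 for Thbs2, the lower ends of the last 3 being without control replicate 2. Tnc ran from -1.49 without control replicate 2 to 0.37 without control replicate 1, where its sign turned, and the cause was not tested. Fn1 was at 1.91 after quantile normalization and 1.87 after cyclic loess, and Sparc at 0.20 after cyclic loess. The fibulin median, 1.11 as reported, was 0.64 after cyclic loess and 0.50 with the mean of probe sets, and 0.15 to 1.79 over the left-out arrays. Those ranges were -0.42 to 3.23 for basal and 0.81 to 2.23 for fibroblast markers.

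Genes past an adjusted p of 0.05 in limma numbered 97 with an intensity trend, and 0 with a robust variance model, against 0 in the reported fit. There 680 genes had an unadjusted p under 0.05, a share of all genes smaller than 0.05 itself. With the replicate number as a block 108 passed, but same-numbered arrays share only a number, since their deviations from the group means correlated at -0.018 across genes. Genes 2-fold apart without overlap, 972 as reported, numbered 614 after quantile normalization, 533 after cyclic loess, 620 with the mean of probe sets, and 732 to 3824 over the left-out arrays. Genes without overlap, 6224 as reported, numbered 3124 among the brighter genes, which are fewer, and 10177 to 14343 over the left-out arrays, where a single array stands for a group. Low signal limits Cthrc1 and Efemp1, whose control values may be background.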
